A study of Sus scrofa with 6 samples.

Results

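ERG, SELP, TEK and CDH5 are genes known from the endothelium, the cell layer that lines blood vessels. Their transcripts were followed in 6 cultures of pig cells, each hybridised to 1 Affymetrix Pig Genome Array. Every probe set whose platform annotation named exactly 1 of these symbols was taken. That gave 7 probe sets for the 4 genes, out of 23999 probe sets and 6765 gene symbols in all: 1 for ERG (Ssc.9771.1.A1_at), 1 for SELP (Ssc.290.1.S1_at), 3 for TEK (Ssc.15902.1.A1_at, Ssc.15902.1.S1_at and Ssc.4753.1.A1_at) and 2 for CDH5 (Ssc.75.1.S1_at and Ssc.75.2.S1_a_at). No filter on low values was applied, so all 7 were tested.

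Of the 6 samples, 2 were somatic. PEF were porcine embryo fibroblasts, and PAFSC were stem cells from amniotic fluid. The remaining 4 were lines of induced pluripotent stem (iPS) cells. By the labels PS24 carried the surface glycans SSEA1, SSEA3 and SSEA4, 30AC5 carried SSEA1, and iPF4-2 and iPSCs-w carried SSEA3 and SSEA4. All cells were grown in DMEM with 15% serum, and the iPS lines on mouse embryo fibroblast feeders. No sample is labelled as endothelial. Each is 1 array, and the p-values measure only the spread between these samples. In fits without PAFSC, PEF is the only somatic array. The spread then comes from the iPS lines alone, and PEF is assumed to vary like them. The values of a probe set are relative to a baseline of its own, which is not stated, and the log base is not stated either and was taken as 2. A value can therefore be compared between arrays for 1 probe set, and no level can be compared between genes.

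ERG is a transcription factor of the ETS family that is active in endothelial cells and keeps their junction genes on; it is also known from cartilage precursors and some blood progenitors. CDH5 encodes VE-cadherin, which joins endothelial cells at their adherens junctions. TEK encodes TIE2, the receptor tyrosine kinase for the angiopoietins. SELP encodes P-selectin, which endothelial cells and platelets store in granules and bring to the surface to catch leukocytes.

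The 4 genes did not share a pattern. ERG was high in both somatic samples and low in all 4 iPS lines. TEK and CDH5 were higher on the PAFSC array, and lay close together on the other 5. SELP was highest in 1 iPS line, PS24. None of the 7 probe sets passed the threshold (adjusted p under 0.05) between iPS and somatic samples in limma over all probe sets, which called 0.025% of them. Of the 7, ERG alone had an unadjusted p under 0.05 in that comparison, as did 3276 of all 23999.

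**Figure D1:**
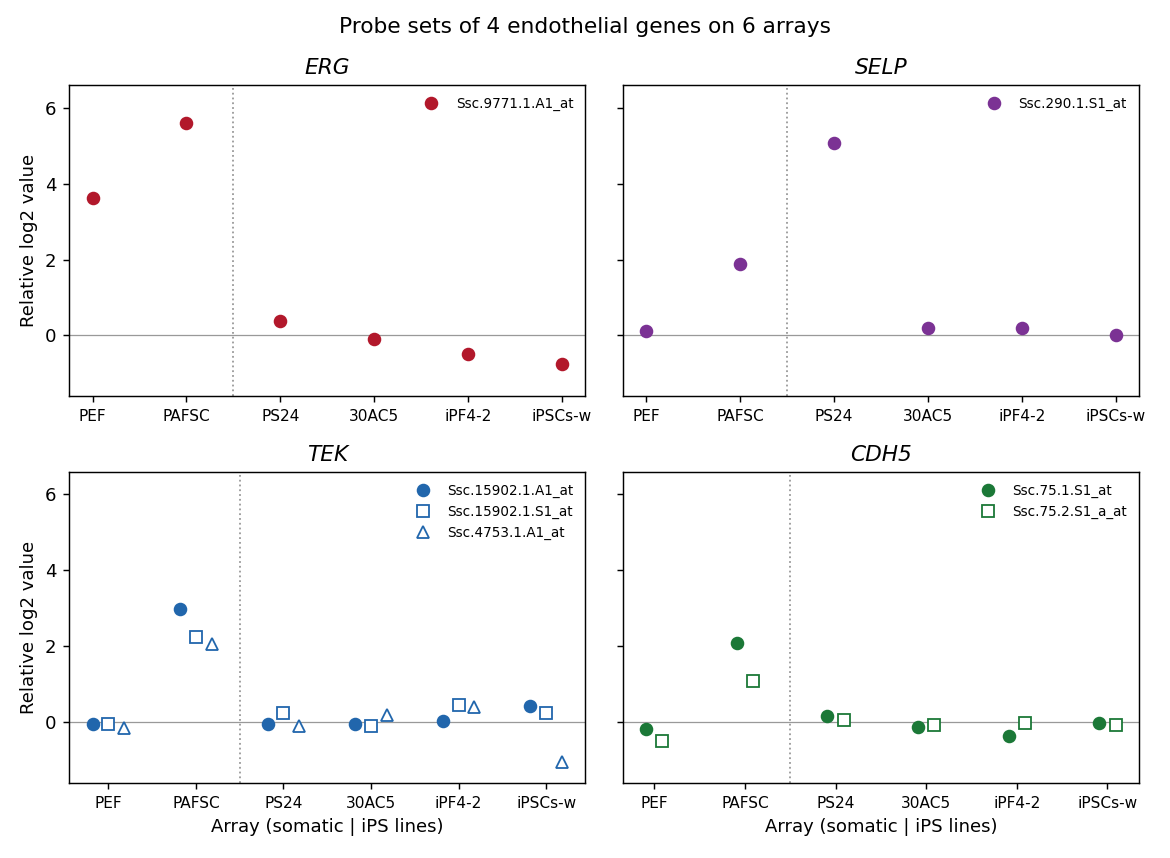
Relative log2 values (y axis) of the 7 probe sets on the 6 arrays (x axis), 1 panel per gene and 1 marker per probe set; the dotted line separates the 2 somatic samples from the 4 iPS lines, and there are no error bars because each point is 1 array. ERG is high in PEF and PAFSC, SELP stands at 5.07 in PS24, and TEK and CDH5 are raised on the PAFSC array alone.

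The PAFSC array stood apart from the rest, and this touches every result that includes it. The standard deviation over its 23999 values was 2.01, against 0.610 to 0.808 on the other arrays, and its median was 0.70, against -0.06 to 0.05. Its 5' minus 3' value, averaged over the control genes GAPDH, actin and EF1A, was 1.90 relative to their baselines. It was -1.90 in PS24 and between -0.03 and 0.19 in the other 4 samples. Of 33 probe sets for fibroblast and mural genes, the 4 iPS lines lay below PEF for 27, against 19.1% of all probe sets, and 3 were called lower by limma. POU5F1, the pluripotency factor OCT4, was 3.68 in iPF4-2 and 3.61 in iPSCs-w, but 0.07 in PS24, -0.07 in 30AC5, -0.50 in PEF and 1.09 in PAFSC. For this gene PAFSC thus lay above PS24 and 30AC5.

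ERG was 3.62 in PEF and 5.59 in PAFSC. Among the iPS lines PS24 had 0.38, 30AC5 -0.09, iPF4-2 -0.49 and iPSCs-w -0.75, a mean of -0.24 ± 0.49 (SD, n = 4). The groups did not overlap, and the lower of the somatic values lay 3.24 above the highest line. The 4 lines lay below both somatic samples for 9.99% of all probe sets, and among the 7 probe sets described here for ERG alone. In these bulk samples, fewer cells with the transcript and less transcript per cell cannot be told apart.

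The mean ERG value of the iPS lines differed from that of the somatic samples by -4.84 (SE 0.65, limma adjusted p = 0.0805). This was the 21st lowest difference of 23999 and the 18th smallest p, but it missed the threshold. Over all probe sets, limma called 6. Without PAFSC the difference was -3.86 (SE 0.48, limma adjusted p = 0.0523), the 177th lowest, where limma called 136 probe sets, or 0.567%. The fit without PAFSC took its spread from the iPS lines alone. Taken as log2 and as deposited, the PEF value was 14.5-fold and the PAFSC value 56.8-fold above the mean of the iPS lines. The PAFSC fold includes the raised median of that array, 0.70. With each array centred on its median, the difference from PEF alone was -3.94 and passed (limma adjusted p = 0.0452), and after quantile normalization it was -3.03 and did not (limma adjusted p = 0.141). With each of the 6 samples left out in turn, the difference from the somatic samples ran from -5.83 to -3.86. Its sign could not change there, because the groups did not overlap.

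Both somatic values of ERG were far up in their own arrays. Here and below, such ranks compare values that are each relative to their own baseline, and do not give the abundance of a transcript. The PEF value was higher than 99.4% of the values of that array, and the PAFSC value ranked 24th. Only 20 of 23999 probe sets, or 0.0833%, reached 3 in both PEF and PAFSC, ERG among them. In the wide upper part of the PAFSC array, 42.5% of values lay between 1 and 3, and ERG lay outside that range. Its PAFSC value exceeded that of PEF by 1.97 as deposited, by 1.21 with each array centred on its median and by 1.97 after quantile normalization. As deposited, this excess was larger than 79.0% of the excesses of all probe sets, and after quantile normalization larger than 96.6%.

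**Figure D2:**
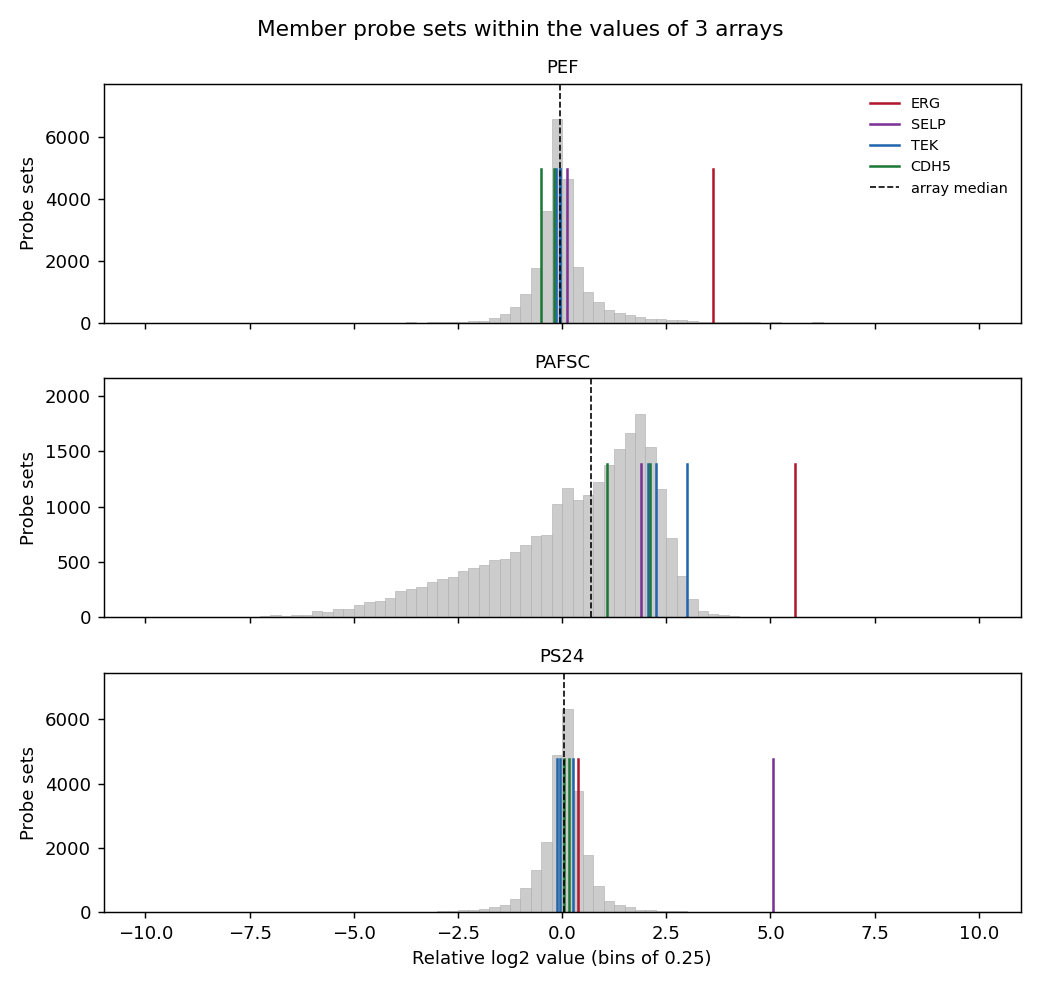
Histograms of the 23999 relative log2 values on the PEF, PAFSC and PS24 arrays (x axis value in bins of 0.25, y axis number of probe sets), with the array median as a dashed line and the 7 probe sets as coloured lines of arbitrary height. On PAFSC the SELP, TEK and CDH5 lines fall between 1 and 3, with the first TEK probe set at the upper edge at 2.99, while ERG at 5.59 lies in the far tail; on PS24 SELP at 5.07 does.

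The genes whose 6 values lay nearest to those of ERG, each centred on its own mean, were TIMP3, IGFBP6 and CNN1. TIMP3, an inhibitor of matrix proteases, had a root mean square distance of 0.53; it was 3.59 in PEF and 5.42 in PAFSC, and from -0.49 to 0.32 in the lines. IGFBP6, a binding protein of insulin-like growth factors, lay at 0.56 with 2.46 and 5.24. CNN1, the contractile protein calponin, lay at 0.63 with 2.12 and 3.49. In all, 25 probe sets lay within a distance of 1 of ERG. When PAFSC was left out, the nearest were SGCD, AGTR1 and C1QTNF3, and none of the first 3 was kept. AGTR1, an angiotensin receptor, was 3.52 in PEF but 0.04 in PAFSC. The genes nearest to ERG thus depended on whether PAFSC was included.

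TEK was measured by 3 probe sets. The first (Ssc.15902.1.A1_at) was -0.05 in PEF and 2.99 in PAFSC, and -0.06, -0.06, 0.03 and 0.42 in PS24, 30AC5, iPF4-2 and iPSCs-w. The second (Ssc.15902.1.S1_at) was -0.05 in PEF and 2.25 in PAFSC, and 0.25, -0.10, 0.45 and 0.23 in the lines. The third (Ssc.4753.1.A1_at) was -0.14 and 2.05, and -0.11, 0.18, 0.39 and -1.04. All 3 put PAFSC highest, by 1.67 to 2.56 above the next array. The first was the 1 probe set of the 7 where PAFSC lay 2 or more above every other array, as it did for 7.95% of all. Among the other 5 arrays they did not give the same order: iPSCs-w was the highest on the first probe set and the lowest on the third.

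Between the iPS lines and both somatic samples the TEK differences were -1.38 (SE 0.79), -0.89 (SE 0.66) and -1.10 (SE 0.72), with limma adjusted p-values of 0.430, 0.463 and 0.445. Without PAFSC they were 0.13 (SE 0.31), 0.26 (SE 0.30) and -0.00444 (SE 0.58), with limma adjusted p-values of 0.899, 0.781 and 0.998. The 95% intervals of the differences without PAFSC reached 0.77, 0.77 and 1.46 to either side. PEF lay within the range of the 4 lines on all 3 probe sets.

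CDH5 was measured by 2 probe sets. The first (Ssc.75.1.S1_at) was -0.18 in PEF and 2.10 in PAFSC, and 0.17, -0.12, -0.36 and -0.01 in PS24, 30AC5, iPF4-2 and iPSCs-w. The second (Ssc.75.2.S1_a_at) was -0.50 in PEF and 1.08 in PAFSC, and 0.04, -0.08, -0.01 and -0.08 in the lines. Both put PAFSC highest, by 1.92 and 1.04 above the next array. On the second, all 4 lines lay above PEF, as they did for 32.4% of all probe sets.

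The CDH5 differences between iPS lines and both somatic samples were -1.04 (SE 0.66, limma adjusted p = 0.443) and -0.33 (SE 0.55, limma adjusted p = 0.711). Without PAFSC they were 0.10 (SE 0.30, limma adjusted p = 0.920) and 0.47 (SE 0.24, limma adjusted p = 0.532). The 95% intervals of the latter reached 0.76 and 0.61 to either side. The sign of both differences turned when PAFSC was left out, and neither passed the threshold in either fit.

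**Figure D3:**
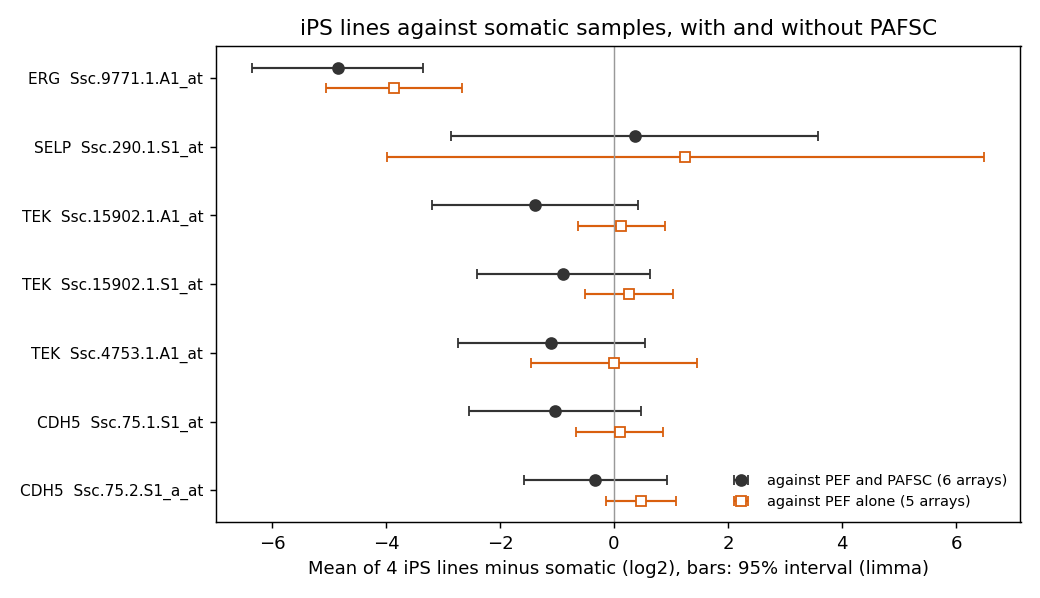
Mean of the 4 iPS lines minus somatic (x axis, log2 units) for each of the 7 probe sets (y axis), against PEF and PAFSC together (filled circles, 6 arrays) and against PEF alone (open squares, 5 arrays), with 95% intervals from limma. The ERG intervals lie below 0 in both fits before adjustment over all probe sets, and the TEK and CDH5 points move to 0 or above it, within their intervals, when PAFSC is left out, except the third TEK probe set at -0.00444.

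The values of TEK and CDH5 on PAFSC lay between 1 and 3, as did 42.5% of all values on that array. PAFSC was the highest of the 6 arrays for 6 of the 7 probe sets, and for 50.1% of all 23999. It exceeded PEF by 2 or more (4-fold) for 4 of the 7, and for 20.1% of all. With each array centred on its median this was 1 of 7, the first TEK probe set at 2.28, against 4.28% of all, and after quantile normalization it was 0 of 7, against 3.20%. PAFSC stayed the highest array for 6 of the 7 under both scalings, where the share of all probe sets was 37.8% and 21.2%. After quantile normalization its lead over the next array was only 0.03 on the third TEK probe set and 0.11 on the second. It was 0.12 on the second CDH5 probe set, and from 0.45 to 1.97 on the others that PAFSC led. Probe sets of the same gene are not separate observations.

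The first TEK probe set stood further out than the other TEK and CDH5 probe sets. Its PAFSC value was higher than 98.5% of the values on that array, and its excess over PEF, 3.03, was larger than 98.1% of the excesses. For the other 4 TEK and CDH5 probe sets the PAFSC value lay between the 57.9 and the 89.1 percentile. PEF against PAFSC is 1 array against 1, so no test was made. With PEF left out, so that PAFSC alone stood for the somatic samples, limma called 6 of the 7 probe sets lower in the lines, but it called 59.6% of all probe sets, 38.9% lower. That fit assumed that PAFSC varies like the iPS lines.

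Many probe sets had profiles near those of TEK and CDH5. Within a root mean square distance of 0.5 lay 4205, 8298 and 4308 probe sets for the 3 TEK probe sets, and 7969 for the first of CDH5. A profile with the same value on all 6 arrays lay outside that distance, at 0.801 to 1.10. For the second CDH5 probe set such a flat profile lay at 0.484, so no count is given. The 3 genes nearest to the first CDH5 probe set were H1FOO, NTN1 and PPBP, at 0.06, 0.06 and 0.07. PPBP, a platelet chemokine, was -0.10 in PEF and 2.31 in PAFSC. Nearest to the first TEK probe set were TRAM1, GNAI1 and LFNG, at 0.08, 0.09 and 0.11. Nearest to the second were PIP, DHX30 and TNFAIP8L2, to the third TOE1, TSC1 and SMOX, and to the second CDH5 probe set CTLA4, SIGLEC1 and AGER. CTLA4 and SIGLEC1 are genes of T cells and macrophages.

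On the 5 arrays without PAFSC the TEK and CDH5 values were nearly flat. Their standard deviations there were 0.21 and 0.23 for the first TEK probe sets and 0.20 and 0.22 for CDH5, below the median of 0.372 over all probe sets. The third TEK probe set, at 0.55, was the exception, and its low value in iPSCs-w set it apart. ERG had a standard deviation of 1.78 over the same 5 arrays and SELP one of 2.21, higher than 97.5% and 98.9% of probe sets.

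SELP was 5.07 in PS24, 1.89 in PAFSC, 0.20 in iPF4-2, 0.19 in 30AC5, 0.12 in PEF and 0.00428 in iPSCs-w. PS24 thus lay 3.18 above PAFSC and higher still above the rest, and the other 4 arrays lay close together. The value in PS24 was the 14th highest of that array. It exceeded the mean of the other 3 lines by 4.94, the 9th largest such difference of 23999. PS24 lay 2 or more above each of the other 3 lines for 0.192% of probe sets, and among the 7 for SELP alone.

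Averaged over lines, this gave no difference past the threshold between iPS and somatic samples. The SELP mean in the iPS lines was 1.37 ± 2.47 (SD, n = 4), and the difference was 0.36 (SE 1.41, limma adjusted p = 0.876) with PAFSC and 1.25 (SE 2.08, limma adjusted p = 0.856) without it. Leaving out PS24 turned the first to -0.87 and took the second to 0.02. A single line decided these values, and there was no second culture of PS24 to measure its spread.

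No other listed gene of the vessel wall or of blood cells stood out in PS24 by as much as SELP. None of the 43 endothelial and 20 blood cell and platelet probe sets of the lists lay 2 or more above the other 3 lines there. Their medians in PS24 were 0.04 and 0.16, and the median excess of PS24 over the mean of the other lines was 0.09 and 0.16, against 0.05 over all probe sets. Smaller excesses occurred: ITGB2, the leukocyte integrin beta-2, was 1.07 in PS24 and at most 0.64 in the other lines. The 3 probe sets of S1PR1, a sphingosine-1-phosphate receptor, were 1.04 to 1.57 in PS24 and higher in 30AC5. SELE, the related E-selectin, was 0.20 in PS24, and the platelet genes ITGA2B, GP9 and PPBP were -0.02, 0.04 and 0.30. The low 5' signal of the PS24 array, given above, was the other feature of that sample; its part in the SELP value was not tested.

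The genes nearest to SELP over the 6 arrays were ASCL2, VSNL1 and ENPEP, at distances of 0.65, 0.68 and 0.74. ASCL2, a basic helix-loop-helix factor known from trophoblast and intestinal stem cells, was 3.65 in PS24 and at most 0.67 in the other lines. VSNL1, a neuronal calcium sensor, was 4.66 in PS24, and ENPEP, an aminopeptidase that cleaves angiotensin II, was 2.91. Only 14 probe sets lay within a distance of 1 of SELP. ASCL2 and VSNL1 were also among the nearest 3 when PAFSC was left out, together with PLAC8, which was 3.28 in PS24.

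Between the SSEA1-labelled lines (PS24 and 30AC5) and the pair without that label (iPF4-2 and iPSCs-w), limma called none of the 7, as it called 0% of all probe sets; without PAFSC it called 0.0167%. With PAFSC in the fit 0 of the 7 had an unadjusted p under 0.05, and 681 of all probe sets did. Without PAFSC ERG did, at limma's unadjusted p = 0.0498, as did 2655 of all. ERG was higher in both SSEA1-labelled lines, by 0.76 in the mean (SE 0.79, limma adjusted p = 1.00; without PAFSC SE 0.30, limma adjusted p = 0.451). Such a separation upward held for 21% of all probe sets. The first TEK probe set was separated downward, as were 20.2% of all, by -0.28 (SE 0.98). The SELP difference was 2.53 (SE 1.45, limma adjusted p = 1.00), and 0.09 when PS24 was left out. The other TEK and CDH5 differences ran from -0.27 to 0.36.

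Of 40 other endothelial genes listed, 26 were measured, by 43 probe sets, and limma called 0 in either comparison with somatic cells. At an unadjusted p under 0.05 there were 4 against both samples and 3 against PEF, or 9.30% and 6.98%, below the 13.7% and 12.3% of all probe sets. The mean of the iPS lines was lower than that of the somatic samples for 38 of the 43, with a median difference of -0.88, against 14606 of 23999 and a median of -0.34 over all. Against PEF alone it was lower for 20 and higher for 23, with a median of 0.04, against 0.13 over all. PAFSC was the highest array for 32 of the 43, or 74.4%, against 50.1% of all. After quantile normalization this was 17 of 43, or 39.5%, against 21.2%, and the median difference between iPS and somatic samples was -0.36, against -0.04 over all.

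Among those highest in PAFSC were PECAM1, TIE1 and SELE. PECAM1, the platelet and endothelial adhesion molecule CD31, was -0.53 in PEF and 1.50 in PAFSC on one probe set and from -0.40 to -0.0016 in the lines. TIE1, the orphan partner of TIE2, was -0.39 in PEF, 1.85 in PAFSC and from -0.12 to 0.42 in the lines. SELE reached 3.18 in PAFSC and was 0.03 in PEF. The probe sets not highest there were those of ICAM1, VCAM1, THBD, CLDN5 and EDN1, all 3 of S1PR1, and 1 each of CAV1, FLT1 and CD93. That of CD93, a C-type lectin receptor, was -4.43 in PAFSC, while its other probe set was 2.07. PAFSC was also the highest array for 17 of 20 blood cell and platelet probe sets, or 85%, against 50.1% of all, among them the leukocyte antigen PTPRC with 2.56 and the T cell receptor subunit CD3E with 2.99, and their median excess of PAFSC over PEF was 2.02, against 1.70 for the endothelial probe sets and 0.72 for all. HBB, the beta-globin gene, was the lowest of that list in PAFSC, at -4.50.

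**Figure D4:**
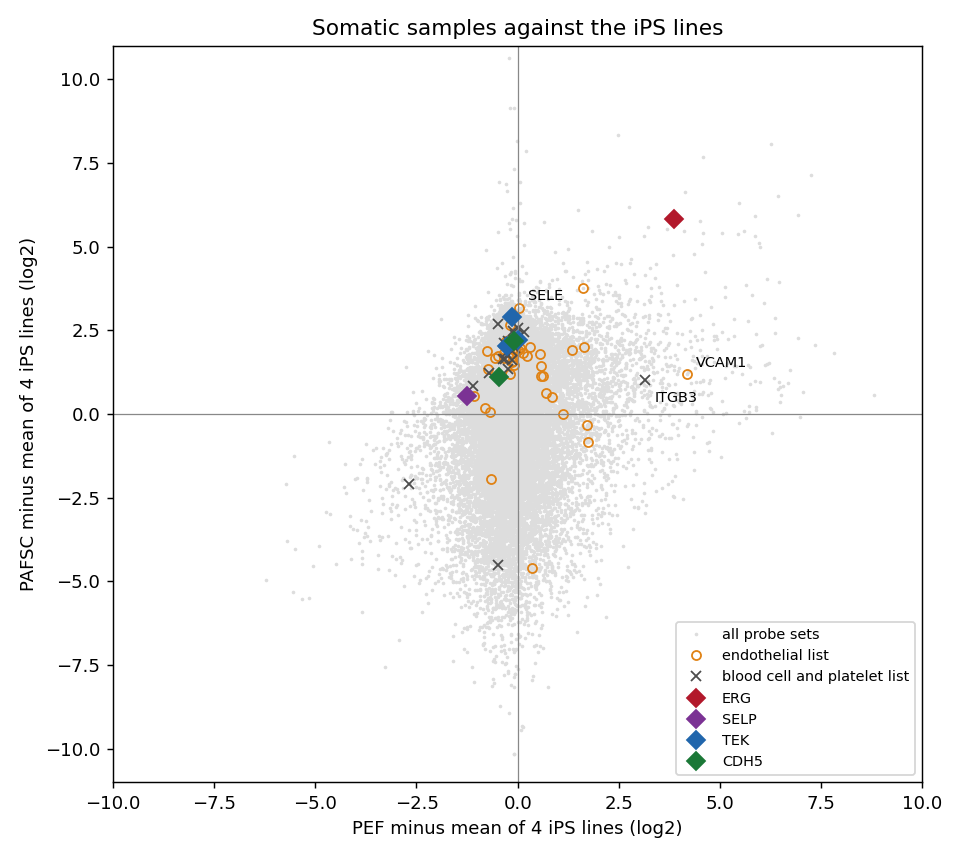
PEF minus the mean of the 4 iPS lines (x axis) against PAFSC minus the same mean (y axis), both in log2 units, for all 23999 probe sets (grey), the endothelial list (open circles), the blood cell and platelet list (crosses) and the 7 probe sets of the 4 genes (diamonds). TEK, CDH5 and most probe sets of both lists lie near 0 on x and near 2 on y, and ERG lies alone among them at 3.86 and 5.83.

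A few endothelial genes were, like ERG, higher in PEF than in every line. Of the 43 probe sets 9 had all 4 lines below both somatic samples, against 9.99% of all, and 12 had them below PEF, against 19.1%. The 9 became 5 after quantile normalization, against 8.31% of all, and stayed 9 with each array centred on its median, against 9.25%. VCAM1, a leukocyte adhesion molecule, was 4.39 in PEF and 1.41 in PAFSC, and from -0.65 to 1.22 in the lines. With each array centred on its median, VCAM1 was higher in 30AC5 than in PAFSC. Its difference was -2.69 (SE 0.88, limma adjusted p = 0.312), and -4.18 (SE 0.74, limma adjusted p = 0.110) without PAFSC. EPAS1, the hypoxia factor HIF-2alpha, was 1.21 and 1.79, and from -0.64 to 0.29 in the lines. CAV1, the caveolar protein caveolin, was 0.98 and 1.34 on one of its probe sets and from -2.17 to 0.13 in the lines. Fibroblasts are also known to express VCAM1 and CAV1.

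The angiopoietins, the ligands of TIE2, were measured too. ANGPT1, the activating ligand, was 2.22 in PEF and 2.06 in PAFSC on one probe set, 1.36 in iPF4-2, and -1.23, -0.73 and -1.27 in PS24, 30AC5 and iPSCs-w. Its difference was -2.61 (SE 0.78, limma adjusted p = 0.277). ANGPT2, which can block the receptor, was 2.85 in PEF and 0.97 in PAFSC, and from -0.30 to 0.70 in the lines. Its difference was -1.77 (SE 0.63, limma adjusted p = 0.328), and -2.71 (SE 0.43, limma adjusted p = 0.0888) without PAFSC. As deposited, ANGPT2 and this ANGPT1 probe set thus lay higher in the somatic samples than in every line. With each array centred on its median, ANGPT2 was higher in iPF4-2 than in PAFSC. On the other ANGPT1 probe set the groups overlapped, with 0.50 in PAFSC and 0.74 in iPF4-2. Of the 28 probe sets for angiopoietin, Tie and VEGF pathway genes, 5 lay below both somatic samples in all lines and 3 above, against 9.99% and 11.9% of all, and limma called 0 (6 at an unadjusted p under 0.05, against 13.7% of all). The 5 below became 2 with each array centred on its median and 2 after quantile normalization, against 9.25% and 8.31% of all. The 3 above were 1 probe set each of GRB2, an adaptor of receptor kinases, VEGFA, the main endothelial growth factor, and FOXO1, and for each gene another probe set had the opposite sign. On that probe set VEGFA was -0.87 in PEF and -3.33 in PAFSC, and from -0.09 to 0.97 in the lines, a difference of 2.57 (SE 0.73, limma adjusted p = 0.260). The other 3 VEGFA probe sets differed by -2.16, -1.13 and -1.53. GRB2 had -0.84 and 0.32 on its other probe sets, and FOXO1 -0.33, so none of these genes had a single direction.

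Among ETS factors and their partners 13 of 33 listed genes were measured, by 23 probe sets, and limma called 0 (1 at an unadjusted p under 0.05, or 4.35%, against 13.7% of all). Their median difference was -0.53, and 0.12 after quantile normalization, so the list had no direction that held. Of the ETS genes in this list, which leaves out ERG, only the repressor ETV6 had all lines below both somatic samples as deposited. It was 0.17 in PEF, 0.53 in PAFSC and 0.07 in 30AC5, the highest line, a difference of -0.64 (SE 0.48). With each array centred on its median, ETV6 was higher in 30AC5 than in PAFSC. ETS2 differed by -2.16 (SE 0.89, limma adjusted p = 0.354) on one probe set, with overlap. KLF2, a shear-stress factor of endothelium, was 2.05 in PAFSC and from -0.05 to 0.30 elsewhere. GATA2, a factor of blood and endothelial progenitors, was 3.54 in PS24 on one probe set, 2.06 in iPF4-2, 1.77 in iPSCs-w and 0.01 in 30AC5.

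Of the cadherins and junction genes, 14 of 23 were measured, by 26 probe sets, and limma called 0 (8 at an unadjusted p under 0.05, or 30.8%, against 13.7% of all). CDH11, the mesenchymal cadherin, was 2.65 in PEF and 0.39 in PAFSC on one probe set, and from -1.57 to -0.45 in the lines, a difference of -2.56 (SE 0.70, limma adjusted p = 0.255). CDH13, a cadherin without a cytoplasmic domain, differed by -3.58 (SE 0.93, limma adjusted p = 0.235). The epithelial cadherin CDH1 had the opposite sign on 1 of its 2 probe sets, with 3.83 (SE 1.04, limma adjusted p = 0.254), and -0.60 (SE 0.71, limma adjusted p = 0.598) on the other, where PAFSC was highest at 2.04. The somatic samples and the lines thus did not overlap for these 3 cadherins on the first probe set named for each, but no difference passed the threshold. Among selectins, their ligands and adhesion partners, 9 of 22 genes were measured by 10 probe sets, limma called 0 (1 of 10 at an unadjusted p under 0.05, against 13.7% of all), and the median difference of -0.35 was 0.08 after quantile normalization.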

How the data were processed

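RNA of 6 pig cell samples was hybridised to the Affymetrix Pig Genome Array, 1 array per sample. The deposited table holds relative log2 values per probe set; the sources used here do not give its normalization software, baseline or log base, and the base was taken as 2 from the values. Fold values depend on that choice. Of 24123 probe sets, 124 controls were left out. Of the 23999 tested, the platform annotation gave 1 symbol for 10069, several for 198 and none for 13732. All 7 probe sets of the 4 genes had the same symbol in RefSeq through their gene ID.

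Values were used as deposited, with no filter and no rescaling. Differences were fitted with limma 3.58.1 in R 4.3.3 over all probe sets, with p-values adjusted by Benjamini-Hochberg at a threshold of 0.05: the 4 iPS lines against both somatic samples or against PEF alone, and SSEA1-labelled against other lines with somatic samples in the fit. The fits were tested on simulated data. From each of 9 gene lists, up to 3 probe sets per direction were to be named, those with the largest difference without overlap, filled by the largest difference; other list genes named were chosen after their values were seen. The 3 nearest genes are those with the smallest root mean square distance of centred values. The members and lists were chosen with earlier results of these data known. The alternatives tried were median centring, quantile normalization, a filter leaving out the lowest 40% by mean, array weights, robust and trended variance, 4 sample classes, probe-set means per gene, and leaving out each array. The number of arrays limits the precision.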

Additional observations from a re-analysis of the deposited data

Results flagged for a closer look

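The SELP value of 5.07 in PS24 lay far from the other iPS lines: its gap to the nearest line was 0.961 of the range of the 4 lines, above Dixon's 95% critical value for 4 samples, which chance passes now and then. Of the 7 probe sets it was the only one past that value. The first TEK probe set came next, with iPSCs-w at 0.821. The share of all probe sets past the critical value was not tested, so the count among the 7 has no background. The 4 genes were also chosen with earlier results of these data known.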

How the results depend on the processing

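No paired analysis was possible, because each sample is a different cell type or line on 1 array and the labels name no pairs. In limma the count of probe sets called between iPS and somatic samples, 6 as reported, was 1 with median centring, 35 without the lowest 40% by mean, 0 with array weights, 2 with a trended variance and 0 with 4 sample classes; with 1 array left out it ran from 0 to 14303, the latter without PEF, and was 136 without PAFSC. Against PEF alone, 136 were called as reported, 17 after quantile normalization, 0 with 4 classes, and 0 to 19 with 1 array left out. For the SSEA comparison the count of 0 was 90 after quantile normalization, 44 with the filter, 575 with array weights, and 0 to 4 with 1 array left out. Without PAFSC it was 4 as reported, 0 after quantile normalization, 2 with median centring, 46 with the filter, 2 with robust variance, 0 with trend and 0 with 4 classes, and 0 to 0 with 1 more array left out.

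Against both somatic samples ERG passed the threshold with the filter (-4.84, limma adjusted p = 0.0203). That filter acts on relative values that ERG passes through its somatic arrays. ERG did not pass with median centring (-4.54), quantile normalization (-4.22), array weights (-4.86), robust variance (-4.84), trend (-4.84) or 4 classes (-4.72). Nor did it pass with any 1 of the iPS lines left out. Without PEF, where PAFSC alone stood for the somatic samples, the difference was -5.83. Against PEF alone ERG passed with median centring (-3.94), the filter (-3.86), array weights (-3.88) and trend (-3.86). That filter again acts on relative values, which include the high PEF value of ERG. It did not pass after quantile normalization (-3.03), with robust variance (-3.86) or with 4 classes (-3.73). With 1 iPS line left out the ERG difference ran from -4.07 to -3.69 and did not pass in any of these fits. In all fits against PEF, 1 array stood for the somatic samples, and the spread came from the iPS lines alone. The cause was not tested. The second CDH5 probe set turned to 0.21 against somatic samples after quantile normalization, and the first to -0.0206 against PEF. The third TEK probe set turned to 0.12 against PEF with array weights, 0.0557 with 4 classes and 0.13 as the mean of the TEK probe sets, which also turned its SSEA difference to -0.0625, with and without PAFSC. With 1 array left out, SELP ran from -0.87 to 1.25 against somatic samples (-0.53 without PEF), the TEK probe sets from -2.90 to 0.13, -2.04 to 0.26 and -2.20 to -0.0044, and CDH5 from -2.18 to 0.10 and -1.12 to 0.47. The third TEK probe set ran from -0.18 to 0.29 against PEF and was -0.35 in the SSEA comparison without iPSCs-w, where the second CDH5 probe set was -0.00559, and -0.0332 without PS24. PAFSC minus PEF, with median centring and then quantile normalization, was 1.21 and 1.97 for ERG, 2.28 and 1.99, 1.55 and 0.77, and 1.44 and 0.74 for TEK, and 1.53 and 0.83, and 0.83 and 0.89 for CDH5.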

Other observations

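Some endothelial and junction genes differed among the iPS lines in other ways than SELP did. CDH6, a cadherin known from kidney, was 5.65 in 30AC5 and 2.80 in PS24, but -0.20 in iPF4-2 and -0.51 in iPSCs-w. S1PR1 was 2.59 in 30AC5 and 1.57 in PS24, and -1.05 and -1.76 in iPF4-2 and iPSCs-w on one probe set. Both had their higher values in PS24 and 30AC5, with mean differences from the other lines of 4.58 (SE 0.94, limma adjusted p = 0.482) and 3.48 (SE 0.75, limma adjusted p = 0.514), and neither passed the threshold. CLDN5, a tight junction claudin of endothelium, was 2.40 in 30AC5. ITGB3, the beta-3 integrin, was 3.09 in PEF and 0.94 in PAFSC, and from -0.56 to 0.29 in the lines, a difference of -3.16 (SE 0.38, limma adjusted p = 0.0518) from PEF alone.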
